A study of Mus musculus with 4 samples.

Results

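The HoxC cluster is a row of 9 homeobox genes on mouse chromosome 15, Hoxc13, Hoxc12, Hoxc11, Hoxc10, Hoxc9, Hoxc8, Hoxc6, Hoxc5 and Hoxc4. Its members were taken by symbol and chromosome from a deposited table of H3K27me3 enrichment per gene and ordered by start. All 9 had a value in both genotypes, out of 20606 genes with both values and 22691 genes listed. H3K27me3, trimethylation of histone H3 at lysine 27, was measured by chromatin immunoprecipitation and sequencing (ChIP-seq) in fibroblasts from female C57BL6/J fetuses at stage E13.5. The cells were Smchd1 +/+ (WT) or Smchd1 MD1/MD1 (MD1), the latter deficient for the chromatin protein SmcHD1, which is known for its part in X inactivation. Each genotype was represented by 1 ChIP library with the mouse monoclonal antibody CMA323 and 1 input library without antibody. How many fetuses, and which parts of them, went into each culture is not given in the sources used here. With 1 library of each kind there is no replicate error and no test between the genotypes, and the depth of the libraries is unknown. All values are log2 enrichments, and a difference is MD1 minus WT, so that 1 is a 2-fold higher and -1 a 2-fold lower enrichment. The values come from a mixture of cells, in which a change in the share of cells that carry the mark and a change in the mark per cell cannot be told apart.

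Hox genes encode transcription factors that give cells a position along the body axis, and within each cluster their order on the chromosome follows the order in which they act from head to tail. The low-numbered paralogues sit at the 3′ end and act towards the head, the high-numbered ones sit at the 5′ end and act towards the tail. Polycomb repressive complex 2 lays H3K27me3 over Hox genes that a cell keeps silent, and cells from different body levels carry it over different stretches of a cluster. The members of paralogue groups 4 to 8 are the central class, and those of groups 9 to 13 are related to the Drosophila gene Abdominal-B.

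In WT cells H3K27me3 was graded along the cluster, and in MD1 cells the grade was shallower. From Hoxc13 to Hoxc6 the WT value was lower at each successive gene, from 2.58 to -0.27, a range of 2.85 or 7.21-fold. In MD1 cells the 9 genes lay between 1.60 and 2.68, a range of 1.08 or 2.12-fold, and 8 of them were within 0.5 of their median of 2.30. In WT cells 3 were within 0.5 of the median of 0.78. The difference was positive at all 9 genes, against 31.0% of all autosomal genes. At least 2-fold higher enrichment was found at 6 of the 9, Hoxc10, Hoxc9, Hoxc8, Hoxc6, Hoxc5 and Hoxc4, against 1.61% of the 19836 autosomal genes with both values. None was at least 2-fold lower, against 20.4% of autosomal genes. The median difference was 1.49 (quartiles 0.44 and 1.74), against -0.27 over all autosomal genes.

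**Figure D1:**
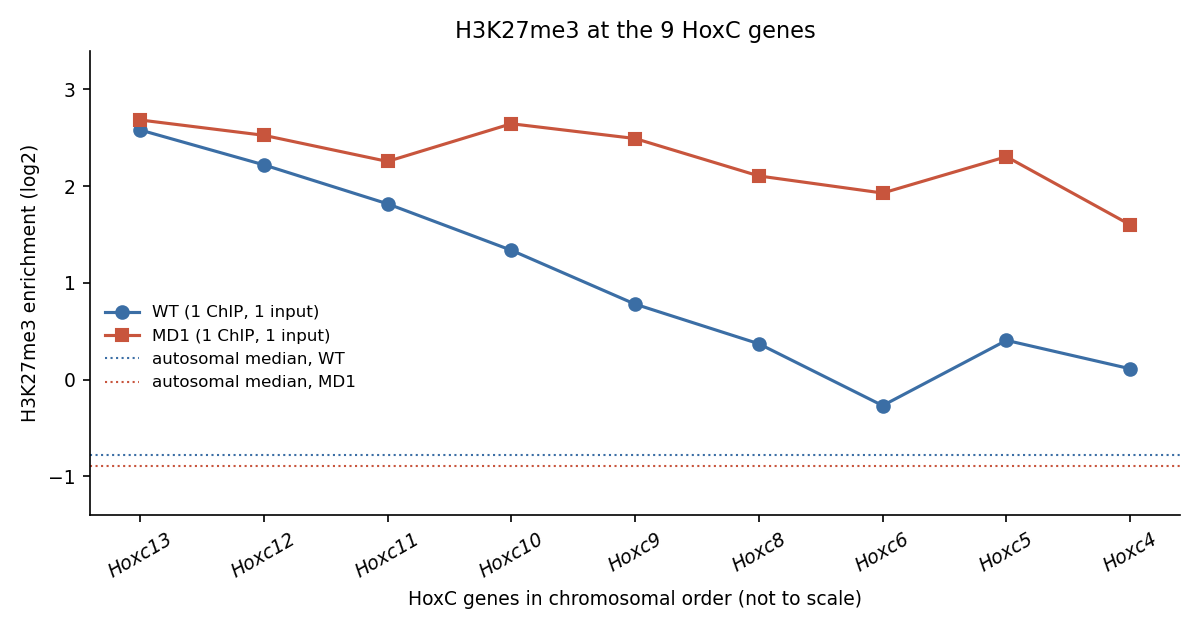
Log2 H3K27me3 enrichment (y axis) at the 9 HoxC genes in chromosomal order (x axis, not to scale) in WT (circles) and MD1 (squares) cells, 1 ChIP and 1 input library each, with dotted lines at the autosomal medians. The WT line descends from 2.58 at Hoxc13 to -0.27 at Hoxc6, and the MD1 line stays between 1.60 and 2.68.

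The 3 genes at the 5′ end had the mark in both genotypes. Hoxc13 (15, 102751562 to 102759245), a regulator of hair and nail keratins, measured 2.58 in WT against 2.68 in MD1, a difference of 0.10 and at percentile 99.1 of autosomal genes in both. Hoxc12 (15, 102767284 to 102768948) stood at 2.22 and 2.53, a difference of 0.31. Hoxc11 (15, 102784957 to 102787132), a gene of the caudal trunk and hindlimb, stood at 1.82 and 2.26, a difference of 0.44. The noncoding RNA gene Hotair, which lies between Hoxc12 and Hoxc11 on the opposite strand and is the only other gene listed inside the cluster, had nearly the values of its neighbours, 2.14 and 2.54. These genes were among the most enriched in either genotype, from percentile 95.4 upwards.

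Between Hoxc11 and Hoxc10 the 2 genotypes parted. Over the 10.1 kb from the end of Hoxc11 to the start of Hoxc10 the WT value was lower by 0.48 and the MD1 value higher by 0.39, which made this the step with the largest change in the difference, 0.87. Hoxc10 (15, 102797227 to 102802328), which acts in lumbar identity, measured 1.34 in WT against 2.65 in MD1, a difference of 1.31 or 2.48-fold. Hoxc9 (15, 102807463 to 102814875), which sets thoracic identity and represses limb-level Hox genes in motor neurons, stood at 0.78 and 2.49, a difference of 1.71 or 3.28-fold. In WT cells Hoxc10 and Hoxc9 were at percentiles 90.1 and 80.7 of autosomal genes, in MD1 cells at percentiles 99.0 and 98.5. In MD1 cells both were thus close to Hoxc12 and Hoxc13.

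The 4 genes of the central class had the lowest WT values, and their differences ran from 1.49 to 2.20. Hoxc8 (15, 102820970 to 102824685), a gene of thoracic and brachial patterning, measured 0.37 in WT against 2.11 in MD1, a difference of 1.74 or 3.33-fold. Hoxc6 (15, 102839993 to 102842312), which acts at the anterior thoracic level, stood at -0.27 and 1.93, a difference of 2.20 or 4.59-fold. It went from percentile 59.1 to percentile 95.2 and had the 22nd highest difference of the autosomal genes. Hoxc5 (15, 102844439 to 102847860) stood at 0.41 and 2.30, a difference of 1.90 or 3.73-fold. Hoxc4 (15, 102864826 to 102867283), which also acts in B lymphocytes on the gene for activation-induced deaminase, stood at 0.11 and 1.60, a difference of 1.49 or 2.81-fold. Hoxc6 was the lowest member in WT cells, whereas in MD1 cells it was Hoxc4, at the 3′ end. The median difference of the central class was 1.82 and that of the 5 Abdominal-B-related genes 0.44, a group that holds both the 3 genes of the 5′ end and Hoxc9 and Hoxc10.

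The intervals of the table covered 31.1% of the 116 kb from the start of Hoxc13 to the end of Hoxc4, so the values describe the genes and not the DNA between them. None of the 9 intervals overlaps another listed gene. That of Hoxc6 was 2320 bp and that of Hoxc4 2458 bp, against 13657 bp and 18760 bp for the same genes in RefSeq (GRCm38.p6), so the long upstream parts of these 2 genes lie outside the values. The other 7 lengths were within 119 bp of RefSeq's. After a constant for each genotype was taken off, the value of Hoxc6 equalled log2 of a quotient of whole numbers. In lowest terms this quotient was 29 to 36 in WT and 109 to 28 in MD1. That of Hoxc10 was 103 to 42 and 403 to 63. Terms reduced in this way do not tell how many reads stood behind a value, as at Hoxc9, with 5 to 3 in WT.

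The 2 microRNA genes of the cluster lie in the stretch with higher enrichment in MD1 cells. Mature products of both are shown because miR-196 is known to act on Hox transcripts. The product miR-196a-2-3p of Mir196a-2 is left out, and miR-196b-5p, from the HoxA cluster, is set beside them. In RefSeq (GRCm38.p6) Mir196a-2 lies between Hoxc10 and Hoxc9 and Mir615 inside Hoxc5. The table has no row for either, so the nearest values are those of these 3 genes. Capitals mark the seed, bases 2 to 8.
miR-196a-5p: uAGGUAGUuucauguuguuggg
miR-196b-5p: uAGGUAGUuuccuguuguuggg
miR-615-5p: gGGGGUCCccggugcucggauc
miR-615-3p: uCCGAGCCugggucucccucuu
Identical miR-196a-5p sequence is encoded by Mir196a-1 in the HoxB cluster, between Hoxb13 and Hoxb9. Mir196b, between Hoxa9 and Hoxa10, gives miR-196b-5p, which has the same seed and differs by A12C, with the base of miR-196a-5p first and positions counted from 1 at the 5′ end. The seeds of miR-615 are not shared with these.

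Set beside the rest of the table, the stretch from Hoxc10 to Hoxc4 was the longest run of neighbouring autosomal genes that were all at least 2-fold higher in MD1, with 6 genes and a median of 1.72. The next, with 5 genes, was Hoxb6 to Hoxb2, and no other run exceeded 4. MD1 values were more widely spread than WT values over autosomal genes, the slope of MD1 on WT being 1.25. When MD1 values were quantile normalised to the WT values, the autosomal median difference moved from -0.27 to -0.012, and 2.55% of autosomal genes were at least 2-fold higher and 2.35% lower. On that scale the same 6 members were at least 2-fold higher, by 1.16 (Hoxc10) to 2.0 (Hoxc6), and Hoxc13 was at -0.060. Among the 2076 autosomal genes within the members' ranges of WT value and of length, 2.99% were at least 2-fold higher and 4.72% lower.

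**Figure D2:**
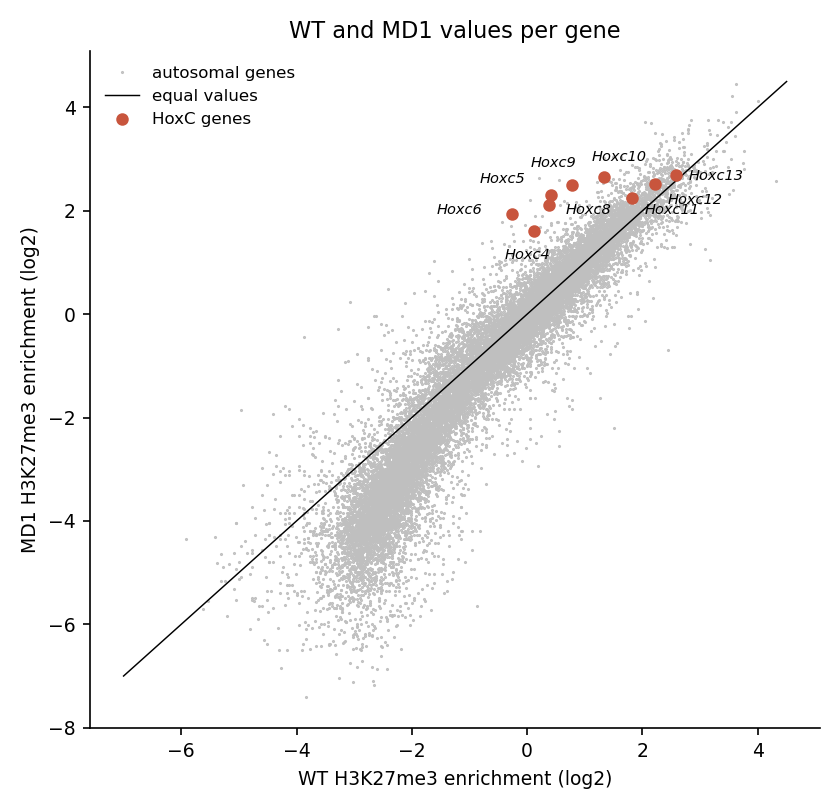
WT (x axis) against MD1 (y axis) log2 H3K27me3 enrichment for the autosomal genes (grey points) and the 9 HoxC genes (labelled), with a line at equal values. Hoxc13, Hoxc12 and Hoxc11 lie near the line among genes of like level, and the other 6 lie 1.31 to 2.20 above it.

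Outside the cluster the pattern did not continue on the Hoxc13 side and was weaker on the Hoxc4 side. Calcoco1, the nearest gene with a value beyond Hoxc13, lies 199 kb away and stood at -0.16 in WT and 0.10 in MD1. Beyond it Atp5g2, encoding a subunit of the mitochondrial ATP synthase, went from -2.23 to -4.29, and Atf7, encoding a transcription factor, from -2.28 to -2.93. Quantile normalised, Calcoco1 differed by 0.31, Atp5g2 by -0.64 and Atf7 by 0.17, so that the sign at Atf7 turned. On the other side D930007P13Rik, 86.2 kb beyond Hoxc4, stood at 1.20 and 2.08, a difference of 0.89, and the uracil glycosylase gene Smug1 at -0.98 and -0.36, a difference of 0.62. The next gene, Cbx5, encoding a heterochromatin protein, went from -3.23 to -4.23. Differences along this side were thus 1.49 at Hoxc4, 0.89, 0.62 and -1.0. After quantile normalisation they were 1.30, 0.71, 0.72 and 0.40, so that the sign at Cbx5 turned and Smug1 was no lower than D930007P13Rik.

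Of the 20 flanking genes, 10 on each side, 10 were at least 2-fold lower and 1 was higher in MD1, and their median difference was -0.94. The 10 lower genes all stood below -1 in WT cells, from -3.23 at Cbx5 to -1.86 at Npff. Besides Atp5g2 and Cbx5 they were Sp1 (-1.37), Prr13 (-2.63), Pcbp2 (-2.36), Tarbp2 (-3.46), Npff (-1.87), Hnrnpa1 (-2.60), Gm10052 (-1.64) and Itga5 (-1.62). The interval of Gm10052 lies inside that of Hnrnpa1, and that of Pcbp2 overlaps another listed gene, so these can share reads. After quantile normalisation only Tarbp2, which encodes a Dicer partner and whose MD1 ratio, reduced, was 1 to 72, stayed past the limit, at -1.74, and the median difference of the 20 was -0.0068. The higher gene was Copz1, encoding a coatomer subunit, 236 kb beyond Hoxc4, which went from -1.66 to -0.34, a difference of 1.32, or 1.43 after quantile normalisation. The 4 flanking genes above 0 in WT cells, Amhr2, D930007P13Rik, Nfe2 and Gpr84, differed by -0.060 to 0.89. Over the other 821 genes of chromosome 15 the median difference was -0.26, and 1.34% were at least 2-fold higher and 20.8% lower.

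**Figure D3:**
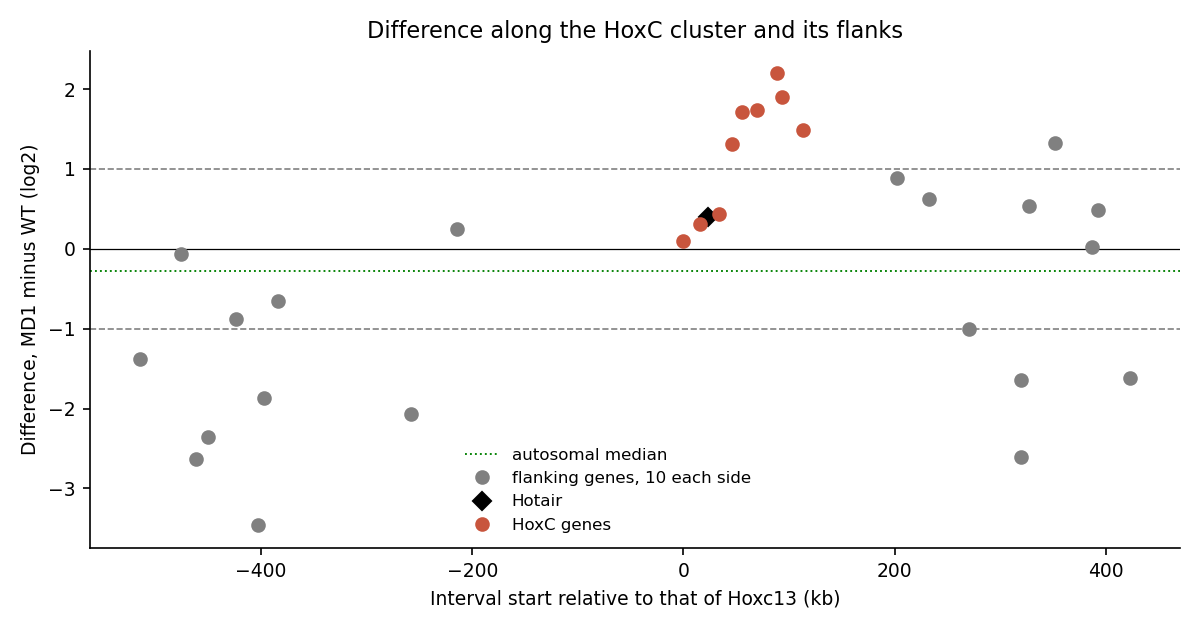
Difference in log2 H3K27me3 enrichment, MD1 minus WT (y axis), by the start of each gene's interval relative to that of Hoxc13 in kb (x axis), for the HoxC genes, Hotair and 10 flanking genes on each side, with dashed lines at 2-fold and a dotted line at the autosomal median. The HoxC genes form an arch that peaks at 2.20 at Hoxc6, and D930007P13Rik and Smug1 follow at 0.89 and 0.62.

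The genes of the same paralogue number in the other clusters differed in how far they shared this. A Hoxc gene had a larger difference than every paralogue of its number at 7 of 9 numbers, and the highest WT value at none. At numbers 10 and 11 the paralogues were those of HoxA and HoxD only, and at number 12 Hoxd12 alone. The 2 exceptions were numbers 4 and 8, where Hoxb4 (1.65) and Hoxb8 (2.0) lay above Hoxc4 (1.49) and Hoxc8 (1.74). The count of 7 was also found with pseudocounts of 0.01 and 1 on the linear ratio and after quantile normalisation. No error is attached to these values, so the order of close neighbours such as Hoxc4 and Hoxb4 is a description.

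In the central class the differences of all 4 clusters had the same sign. At number 4, Hoxa4 differed by 0.90 (0.65 to 1.55) and Hoxd4 by 0.70 (1.38 to 2.08). At number 5, Hoxb5 differed by 1.31 and Hoxa5 by 0.90, against 1.90 at Hoxc5. At number 6, Hoxb6 differed by 1.54 and Hoxa6 by 1.28, against 2.20 at Hoxc6. At number 8, Hoxd8 differed by 0.30 (0.49 to 0.79). Of these 9 other paralogues, 5 were at least 2-fold higher, 4 of them in HoxB, against 1.61% of autosomal genes.

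At the high numbers the clusters separated by sign, but from number 10 upwards HoxB has only Hoxb13. At number 9, Hoxb9 differed by 1.35 and Hoxa9 by 0.54, whereas Hoxd9 went from 1.49 to 0.68, a difference of -0.81. At number 10, Hoxa10 differed by -0.12 and Hoxd10 by -0.97 (2.32 to 1.35), against 1.31 at Hoxc10. At number 11 the differences were -0.68 at Hoxa11 and -0.65 at Hoxd11, against 0.44 at Hoxc11, and at number 12 -0.49 at Hoxd12, against 0.31 at Hoxc12. At number 13 they were -0.37 at Hoxb13, -0.56 at Hoxa13 and -1.30 at Hoxd13 (2.21 to 0.91), against 0.10 at Hoxc13. In MD1 cells Hoxc10, Hoxc11 and Hoxc12 thus stood at 2.65, 2.26 and 2.53, above all their paralogues. After quantile normalisation the signs at numbers 9 to 13 were as given, except that Hoxc13 turned to -0.060. Centred on the autosomal median, Hoxa10 turned to 0.15, so that the other clusters no longer all lay below 0 from number 10 upwards.

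**Figure D4:**
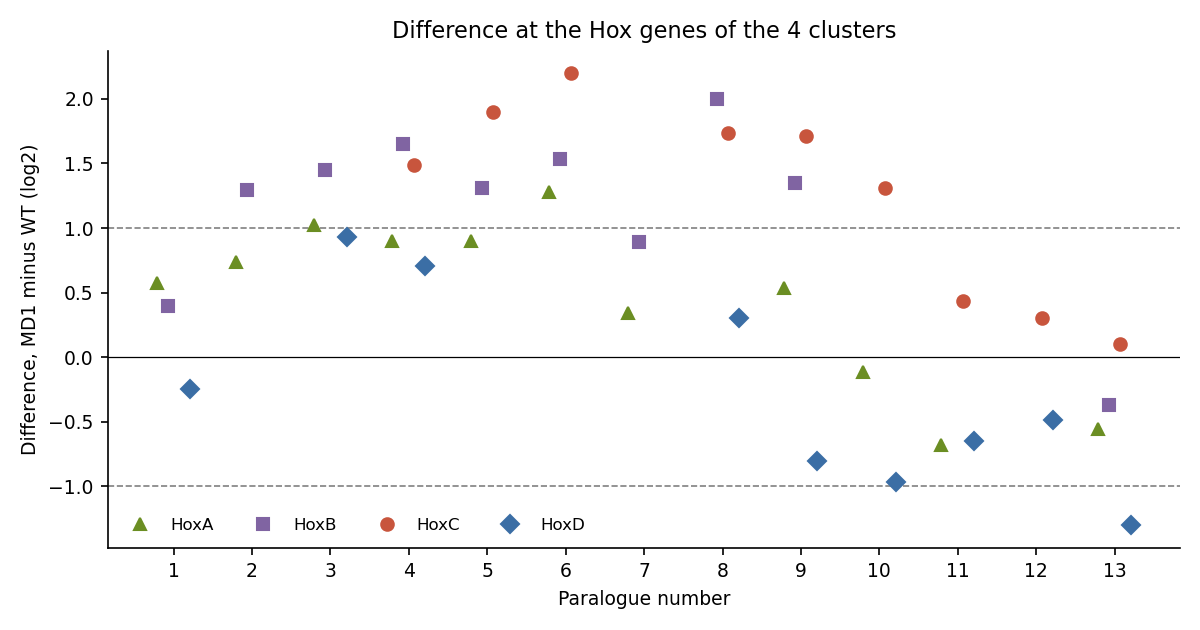
Difference in log2 H3K27me3 enrichment, MD1 minus WT (y axis), by paralogue number (x axis) for the genes of HoxA, HoxB, HoxC and HoxD, with dashed lines at 2-fold. From number 10 upwards every HoxC value, 0.10 to 1.31, lies above 0 and those of the other clusters, -1.30 to -0.12, lie below it, but Hoxc13 turned after quantile normalisation and Hoxa10 when centred. HoxB has only Hoxb13 there.

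By cluster, HoxC had 6 of 9 genes at least 2-fold higher with a median difference of 1.49, and HoxB 7 of 10 with a median of 1.33. Over all autosomal genes 1.61% were at least 2-fold higher, or 2.55% after quantile normalisation. HoxA had 2 of 11, Hoxa6 (1.28) and Hoxa3 (1.03), with a median of 0.57, but after quantile normalisation Hoxa3, at 0.83, was within the limit. HoxD had none of 9 and a median of -0.49, its largest differences being Hoxd13, Hoxd10, Hoxd3 (0.93) and Hoxd9. At least 2-fold lower in HoxD was 1 gene of 9, Hoxd13, against 20.4% of autosomal genes. Of autosomal genes within the ranges of the HoxC genes in WT value and length, 4.72% were at least 2-fold lower. Quantile normalised, Hoxd10 was past this limit as well, at -1.12, against 2.35% of autosomal genes. In HoxB the largest were Hoxb8, Hoxb4, Hoxb6 and Hoxb3 (1.45), and in HoxA the next after the 2 named were Hoxa4 and Hoxa5. The range of values within HoxB was 3.51 in WT and 1.80 in MD1, and within HoxA 2.06 and 0.79, so both also had a narrower range in MD1. The range within HoxD was narrower in MD1 as well, at 1.97 in WT and 1.52 in MD1. The intervals of Hoxa3, Hoxa4, Hoxa5, Hoxa6, Hoxa11, Hoxd3 and Hoxd4 overlap another listed gene and can share reads with it. No test of a difference between clusters was possible.

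The promoters of 3 paralogues of number 4 are in the RefSeq table used here (GRCm38.p6), and Hoxc4 is the only HoxC gene with an entry. The 250 bases before each start are shown to set Hoxc4 beside the paralogues with a larger and a smaller difference, Hoxb4 and Hoxd4. They lie on the plus strand at chr15:103034145-103034394, chr11:96318017-96318266 and chr2:74721728-74721977. Capitals mark CpG dinucleotides, since CpG-rich DNA is known to attract Polycomb complexes.
Hoxc4: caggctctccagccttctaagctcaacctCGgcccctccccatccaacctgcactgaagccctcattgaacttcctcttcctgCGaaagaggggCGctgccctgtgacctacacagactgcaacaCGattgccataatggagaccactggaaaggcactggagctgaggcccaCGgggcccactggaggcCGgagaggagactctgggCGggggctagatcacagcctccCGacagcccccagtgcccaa
Hoxb4: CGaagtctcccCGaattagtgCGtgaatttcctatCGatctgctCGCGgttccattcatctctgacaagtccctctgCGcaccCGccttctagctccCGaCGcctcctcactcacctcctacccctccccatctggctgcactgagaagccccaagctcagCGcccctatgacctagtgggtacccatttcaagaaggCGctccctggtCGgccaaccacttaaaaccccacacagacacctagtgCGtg
Hoxd4: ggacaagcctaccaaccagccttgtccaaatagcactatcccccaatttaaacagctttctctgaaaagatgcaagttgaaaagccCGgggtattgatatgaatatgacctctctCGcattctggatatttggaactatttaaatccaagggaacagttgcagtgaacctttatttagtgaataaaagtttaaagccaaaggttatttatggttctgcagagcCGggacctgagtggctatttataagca
CG, searched on the strand shown, which reads the same on the other, occurs 8 times before Hoxc4, 14 times before Hoxb4 and 3 times before Hoxd4. At least 8 occurrences were found in 43.0% of the 32851 promoters of the table, at least 14 in 29.4% and at least 3 in 71.0%. G and C made up 62.0% of the bases before Hoxc4, 58.0% before Hoxb4 and 40.4% before Hoxd4, against a median of 52.4%. The window of Hoxc4 lies inside the longer span that RefSeq gives this gene. H3K27me3 was given over gene intervals and not over promoters, so none of these windows has a value of its own. The interval of Hoxd3 begins well before that of Hoxd4 and ends beyond it. Its value, 1.27 in WT and 2.19 in MD1, thus takes in the bases before Hoxd4 along with the rest of that interval.

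The 5 autosomal genes nearest to Hoxc6 in the plane of WT and MD1 value, leaving out HoxC, were Hoxb8, Chchd10, Gltpd2, Olfr557 and Taar9, at log2 distances of 0.22 to 0.40. Hoxb8, the nearest, stood at -0.29 and 1.71. Chchd10, encoding a mitochondrial protein, stood at -0.43 and 1.78, and its interval overlaps another gene. The other 3 were short, 1047 to 1528 bp. Likeness was measured over only these 2 values.

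Genes whose products act with or on Hox genes were taken as lists, in which at least 2-fold changes are read against 2.38% higher and 20.3% lower of all compared genes, or 2.55% and 2.35% of autosomal genes after quantile normalisation. Of the 9 genes of the Hox cofactors Pbx, Meis and Pknox, none was at least 2-fold higher and 1 was lower, Pbx2, from -0.93 to -2.11. Meis1 stood at -1.35 and -0.43, a difference of 0.92, and Pbx3 differed by -0.67. After quantile normalisation both calls turned, with Meis1 past the limit at 1.04 and Pbx2 within it at -0.69. The list's median difference was -0.16. Of 30 Polycomb genes none was past 2-fold higher, and 11 were past 2-fold lower. Their median level was -1.58 in WT and -2.18 in MD1, and the largest differences were at Ring1 (-2.41), Phf1 (-2.38) and Rbbp4 (-2.09). After quantile normalisation 3 were at least 2-fold lower and the median difference was 0.0034.

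Of 10 genes of Trithorax complexes and H3K27 demethylases, which oppose Polycomb, 5 were at least 2-fold lower, against 20.3% of all compared genes, led by Kmt2b (-1.74), Kmt2d (-1.66) and Wdr5 (-1.22), and none was past the limit after quantile normalisation. Of 11 inducers and regulators of Hox genes, set against the same 20.3% lower and 2.38% higher, 2 were lower, the retinoic acid receptor genes Rarg (-1.37 to -3.08) and Rara (-2.44 to -3.68), and 1 was higher, Cyp26a1, encoding an enzyme that degrades retinoic acid (2.31 to 3.32). Rarg and Rara differed by -0.82 and -0.084 and Cyp26a1 by 0.85 after quantile normalisation. Smchd1 itself stood at -2.44 in WT and -3.47 in MD1, which is not a check of the genotype, since the mark does not show whether the protein is made.

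The fibroblast label was set against the mark, since expression was not measured. The 10 fibroblast markers, among them Col1a1, Vim, Fn1 and Twist1, had little H3K27me3, the median being -2.87 in WT and -3.98 in MD1. In MD1 cells 5 of them lay at least 2-fold lower, against 20.4% of autosomal genes, but no marker was past the limit after quantile normalisation, against 2.35%. The highest of them was Thy1, at -1.80 and -1.21. The 18 markers of muscle, neural, blood, epithelial, endothelial and germ cells had medians of 1.43 and 1.29 and differed by -0.62 to 0.88, none of them by 2-fold. They were not alike in level, with single WT values from -0.21 to 3.13. By type the WT medians were 2.59 (neural), 1.76 (muscle), 1.52 (blood), 1.35 (epithelial), 0.18 (germ cell) and 0.070 (endothelial).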

How the data were processed

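For each genotype, 1 ChIP and 1 input library gave 1 value per gene. The deposited values are log2 enrichments, per the file headers and their range, and the build is mm9, per the submitters' processing notes. No source used here gives the aligner, counting, filters or denominator. At a relative tolerance of 1e-12, 99.98% (WT) and 99.95% (MD1) of the values equal a constant (0.043 and -0.032) plus log2 of a quotient of whole numbers up to 20000, the form of a scaled ChIP over input count. Such quotients can be read only in lowest terms, depth stays unknown and no interval is given.

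Starts are printed counting from 1. Differences, medians, percentiles among autosomal genes and counts past 2-fold were computed in Python 3.11.15 with pandas 2.3.3 and numpy 2.4.6, and the code was tested on simulated data. No test was run. Quantile normalisation mapped MD1 onto WT values by rank over all compared genes. The members and lists were chosen with earlier results of these data known. Named were all members, the 3 nearest genes on each side, other flanking genes past 2-fold, paralogues of the members, the 4 largest differences in each other Hox cluster, the 3 largest in each pathway list, Smchd1, and the 5 genes nearest to Hoxc6. Other genes, such as the further markers and flanking genes above 0 in WT, were picked after their values were seen.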

Additional observations from a re-analysis of the deposited data

How the results depend on the processing

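Of the alternatives run, 42 values of the main counts and medians kept their direction and moved by at most 1.5 times, and those that did not are given here. The median difference of the 9 genes ran from 1.04 with a pseudocount of 1 to 1.76 when centred on the autosomal median, and the count at least 2-fold higher was 5 with a pseudocount of 1 and 4 at a limit of 3-fold. Only Hoxc13, Hoxc10 and Hoxc6 have denominators of at least 20 in lowest terms in both genotypes, and 2 of these 3 were at least 2-fold higher. A denominator in lowest terms does not show how many reads there were, so this limit is no check of depth. For paralogue groups 9 to 13 the median difference of 0.44 became 0.71 when centred and 0.28 after quantile normalisation. It was 0.71 with denominators of at least 20 in lowest terms and 0.77 as a mean. The median of the flanks, -0.94, became -0.098 with a pseudocount of 1, -0.0068 after quantile normalisation, -0.20 among genes that overlap no other and -0.55 with 20 genes on each side, of which only 16 have values beyond Hoxc4. It turned to 0.077 when genes below the 25th percentile of mean level were left out, and genes farther away took their place. Hoxc13 turned from 0.10 to -0.060 after quantile normalisation. The causes of the other changes were not tested. No paired analysis was possible because each genotype had 1 library of each kind. The depth is unknown, so its limit on each gene could not be given.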

Other observations

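Farther along the Hoxc4 side, the last 6 genes with values before the end of the table's chromosome 15 stood at WT values of 0.27 to 1.33 and differed by less than 2-fold. These were Gtsf1 (-0.15), BC048502 (-0.24), Nckap1l (0.094), Pde1b (0.044), Ppp1r1a (-0.17) and Glycam1 (0.63). Beyond Hoxc13 the osteoblast transcription factor gene Sp7, 555 kb away, stood at 1.49 in WT and 1.55 in MD1. Itgb7, 689 kb away on that side, stood at 0.21 and 0.50, a difference of 0.30. These genes were picked after their values were seen, as genes with a WT value above 0 that lie outside the cluster.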
